A study of Mus musculus with 12 samples.

Results

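Lumbar dorsal root ganglia (DRG), which hold the cell bodies of the sensory neurons beside the spinal cord, were compared between ZT20 and ZT14. ZT is zeitgeber time, the hour counted from lights on. The 3 libraries labelled ZT20 were set against the 3 labelled ZT14, 6 of the 12 samples of the series; the other 6 were taken at ZT2 and ZT8. Both groups came from male C57BL/6J mice aged 6 to 12 weeks, with no genetic change and no treatment named, and the titles call the animals naive. Ganglia L1 to L6 went into a sample, and the labels do not say how many animals gave the tissue of 1 library. If libraries of a time share animals, the p-values below measure only the spread between libraries. The hours of light are not stated. Library numbers run upwards with the time of collection, so a batch of dissection or preparation and the time of day cannot be told apart.

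Polyadenylated RNA was sequenced as paired reads, and the deposited table holds an estimated count for each gene. In the 6 libraries these counts summed to between 100.4 and 125.0 in units of 1000000, which corresponds to roughly 54.5 to 67.1 in the same unit of reads, and 28413 to 29355 genes had a value of 1 or more. Across genes, which are no independent replicates, log2 levels of any pair of the 6 had a Pearson r of 0.966 or more (median 0.971). The tissue label held against its neuronal and glial markers. The 16 pan-neuronal genes summed to between 16071 and 17208 CPM (counts scaled to a library of 1000000) at ZT14 and to between 16662 and 16936 CPM at ZT20, and the 16 satellite glia genes to between 6100 and 7692 CPM and between 6507 and 7115 CPM. Of 12 spinal cord genes 6 were tested. Gad2, Slc6a5, Chat and Opalin were too low to test, and Olig2 and Slc32a1 had no entry under those names. Mog and Olig1, which mark oligodendrocytes, stood at 0.11 CPM or less in each of the 6 libraries. The 6 tested genes summed to between 255.5 and 266.1 CPM at ZT14 and to between 256.3 and 283.4 CPM at ZT20. Nearly all of that sum came from members other than Mog and Olig1. The 17 skeletal muscle genes were the least even between libraries: they summed to 753.3, 352.8 and 436.3 CPM in ZT14 replicates 1 to 3 and to 1386, 205.0 and 340.1 CPM in ZT20 replicates 1 to 3. The muscle-richest library was thus replicate 1 at both times.

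Nearly every mammalian cell runs a circadian clock. BMAL1 (encoded by Arntl) pairs with CLOCK or NPAS2, binds E-boxes in DNA and switches on the period, cryptochrome and REV-ERB genes, whose products then act back on the activators: PER and CRY proteins inhibit the pair, and the REV-ERB proteins, encoded by Nr1d1 and Nr1d2, repress Arntl through ROR elements. The proteins DBP, TEF and HLF, and their antagonist NFIL3, carry the rhythm to further genes through D-boxes. Sensory ganglia contain neurons, the satellite glia that wrap them, Schwann cells, fibroblasts, resident immune cells and a dense supply of blood vessels. In bulk RNA, fewer cells of a type and less RNA in each of those cells cannot be told apart.

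Few transcripts passed the edgeR threshold between the times. Of 25809 genes tested, 11 passed an edgeR adjusted p of 0.05 (0.0426% of those tested), of which 9 were lower at ZT20 (0.0349%) and 2 were higher (0.00775%). The number depended on the tool: limma-trend called 18 and DESeq2 115, both with all 11 among them. Among the 11 were 6 clock genes, 2 genes of red blood cells, a lipid-binding protein of glia, a monooxygenase and a matrix protease. At an unadjusted p under 0.05, 810 genes were lower (3.14%) and 811 higher (3.14%). All 3 libraries of ZT20 lay below all 3 of ZT14 for 1440 genes (5.58%) and above them for 1492 (5.78%), and the median log2 fold change over all tested genes was 0.00044. The count of 11 depended on single libraries, including libraries of ZT2 and ZT8, which share in the estimate of the spread: it was 4 without ZT20 replicate 3, 5 without ZT14 replicate 2 or without ZT20 replicate 1, 6 without ZT8 replicate 1, 7 without ZT14 replicate 3 or without ZT2 replicate 2, and 17 without ZT2 replicate 3. Fabp7, Arntl, Per2 and Fmo2 passed in each of the 12 fits that left out 1 library. The other 7 did not: Alas2 missed the threshold in 1 of those fits, Nr1d2 in 4, Per3 in 6, Adamts1 in 9, Hba-a1 and Bhlhe40 in 10 each and Tef in 11. Without the muscle-richest library of ZT14 and of ZT20 the count was 7, of which 6 were among the 11. It was 0 without the muscle-richest library of each of the 4 times, and 0 in the 6 libraries alone with replicate number as a block.

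**Figure D1:**
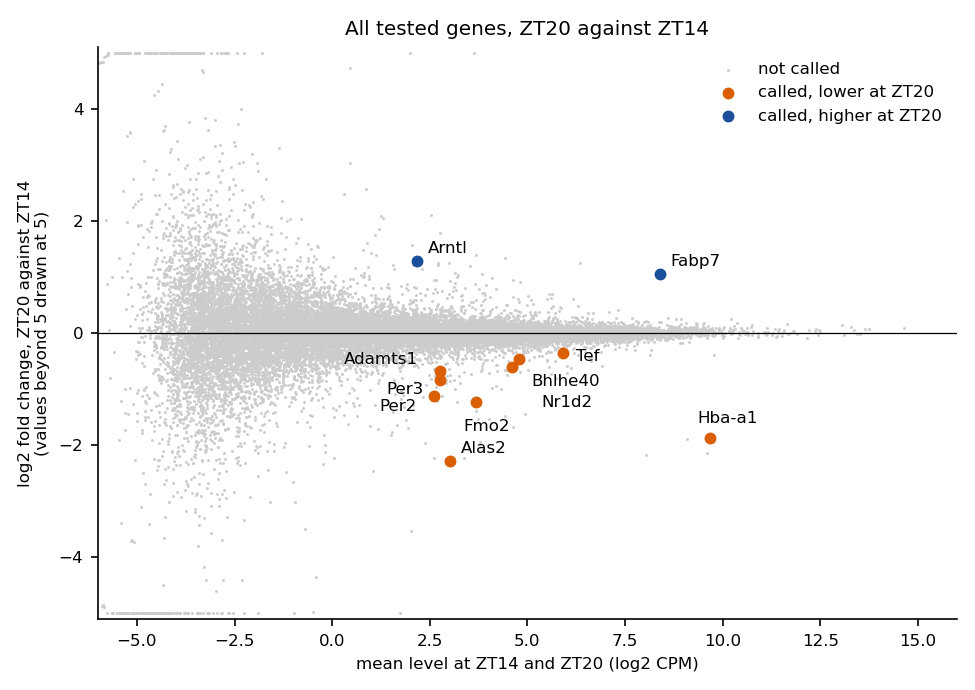
Each point is a gene, with its mean level at ZT14 and ZT20 on the x axis (log2 CPM) and its log2 fold change of ZT20 against ZT14 on the y axis. The 2 genes called higher (blue) and the 9 called lower (orange) are named, and most grey points of large fold change lie at low CPM.

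The repressor and output arm of the clock, taken here without Cry1 and Nfil3, lay lower at ZT20 in all 12 of its measured genes. Of these 5 fell by the edgeR test (6 in limma-trend and 9 in DESeq2), and 10 had an unadjusted p under 0.05 (all lower). In 10 the libraries of both times had no overlap (all lower), and the median log2 fold change was -0.59. Among all tested genes 0.0349% were called lower, 3.14% were lower at such an unadjusted p and 5.58% were lower without overlap. The count of 5 was 0 in the 6 libraries alone and 0 without the 4 muscle-richest libraries, in both of which 10 still had an unadjusted p under 0.05. It was 1 without ZT14 replicate 2 or 3 or ZT20 replicate 1 or 3, 2 without ZT8 replicate 1 or ZT14 replicate 1, and 3 without ZT2 replicate 1 or 2 or ZT20 replicate 2. In the period family, which encodes the proteins that inhibit the activators, Per2 was at 7.56, 8.25 and 9.10 CPM in the ZT14 libraries and at 3.33, 4.39 and 3.68 CPM in the ZT20 libraries. Even the highest ZT20 library was well under the lowest of ZT14. Per2 thus fell to 0.458 of its ZT14 level (log2 fold change -1.13 ± 0.11 SE, edgeR adjusted p = 0.00394), a call lost in the 6 libraries alone (edgeR adjusted p = 0.0761) and without the 4 muscle-richest libraries (edgeR adjusted p = 0.102). Per3 stood at 9.19, 8.70 and 8.27 CPM at ZT14 and at 4.89, 5.41 and 4.38 CPM at ZT20, again with a clear gap, and fell by 0.83 ± 0.11 on the log2 scale (SE, edgeR adjusted p = 0.0258); its call was lost without ZT8 replicate 1, any 1 of the ZT14 libraries, ZT20 replicate 1 or ZT20 replicate 3. Per1, which also answers quickly to stress hormones and neuronal activity, was more scattered, with 19.4, 21.1 and 25.2 CPM at ZT14 and 10.2, 17.7 and 16.5 CPM at ZT20; its difference of -0.56 ± 0.18 (log2, SE) did not pass (edgeR adjusted p = 0.652).

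The 2 REV-ERB genes differed in how evenly the libraries of ZT14 stood. Nr1d2 was at 27.4, 30.5 and 30.6 CPM at ZT14 and at 17.8, 21.6 and 18.5 CPM at ZT20, and fell by 0.61 ± 0.07 on the log2 scale (SE, edgeR adjusted p = 0.0140). The groups did not overlap, and the call was lost without ZT14 replicate 2 or 3 or ZT20 replicate 1 or 3. For Nr1d1 the ZT14 libraries ran from 21.8 to 34.5 CPM, replicate 1 being the highest, against 12.8 to 14.4 CPM at ZT20. The fold was larger than for Nr1d2, at 0.501 of the ZT14 level, but with that spread it did not pass (edgeR adjusted p = 0.175). Replicate 1 of ZT14 was also the highest of its time for Dbp and Ciart. Dbp had 33.6, 20.6 and 17.7 CPM at ZT14 against 8.05, 9.16 and 7.57 CPM at ZT20 (log2 fold change -1.54 ± 0.24 SE, edgeR adjusted p = 0.0836), and Ciart, a repressor of the activator pair, had 8.86, 5.92 and 5.90 CPM against 3.37, 3.64 and 3.90 CPM (log2 fold change -0.92 ± 0.15 SE, edgeR adjusted p = 0.0889). Neither overlapped between the times.

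Among the D-box proteins, Tef had the smallest fold change of the called genes. Its libraries read 66.5, 70.0 and 66.3 CPM at ZT14 and 49.8, 53.5 and 55.3 CPM at ZT20, with every ZT20 value lower, and it fell by 0.35 ± 0.05 on the log2 scale (SE, edgeR adjusted p = 0.0354). That call held in only 1 of the 12 fits without 1 library, the fit without ZT2 replicate 3. Hlf, its close relative, was at 5.28, 5.86 and 5.21 CPM and then at 3.92, 3.94 and 3.89 CPM, which did not pass (edgeR adjusted p = 0.377). Bhlhe40, a repressor that competes for E-boxes, was at 33.5, 30.9 and 30.9 CPM at ZT14 and at 22.5, 23.5 and 23.4 CPM at ZT20. No library overlapped, and it fell by 0.46 ± 0.07 on the log2 scale (SE, edgeR adjusted p = 0.0472); of the 12 fits without 1 library it passed in those without ZT8 replicate 2 or 3. Its paralogue Bhlhe41 (24.7 to 27.8 CPM against 21.1 to 25.0 CPM, overlapping) and Cry2, a cryptochrome (67.8 to 71.3 CPM against 63.1 to 69.3 CPM, overlapping), had log2 fold changes of -0.19 and -0.07.

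The second clock list holds the activators and genes that peak near them, among them Cry1 and Nfil3, which are themselves repressors. Of its 7 measured genes 5 had a log2 fold change below 0, and the median was -0.09. At an unadjusted p under 0.05, 2 were higher and 0 lower. Over all tested genes 0.00775% were called higher and 3.14% were higher at such a p. In edgeR 1 gene of the list rose and 0 fell, and DESeq2 named the same gene. That gene was Arntl, with 2.52, 2.58 and 2.80 CPM in the ZT14 libraries and 6.75, 5.54 and 6.88 CPM in those of ZT20. It was 2.43 times as high at ZT20 (log2 fold change 1.28 ± 0.11 SE, edgeR adjusted p = 0.00210), the opposite direction to the repressor arm. Arntl lost this call without the 4 muscle-richest libraries and in the 6 libraries alone with replicate number as a block. Npas2, which can stand in for CLOCK as its partner, was at 2.66, 2.70 and 2.53 CPM and then at 3.19, 3.05 and 3.46 CPM. The groups did not overlap, but the log2 difference of 0.30 ± 0.09 (SE) did not pass (edgeR adjusted p = 0.651). Clock itself had 15.6 to 17.7 CPM at ZT14 and 14.2 to 16.8 CPM at ZT20, overlapping. Cry1, a cryptochrome that peaks later than the other repressors in many tissues, stood at 12.2 to 13.1 CPM against 10.9 to 12.6 CPM. Rora, an activator that binds ROR elements, and Nfil3 had log2 values of -0.09 and -0.02, both with overlapping libraries.

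**Figure D2:**
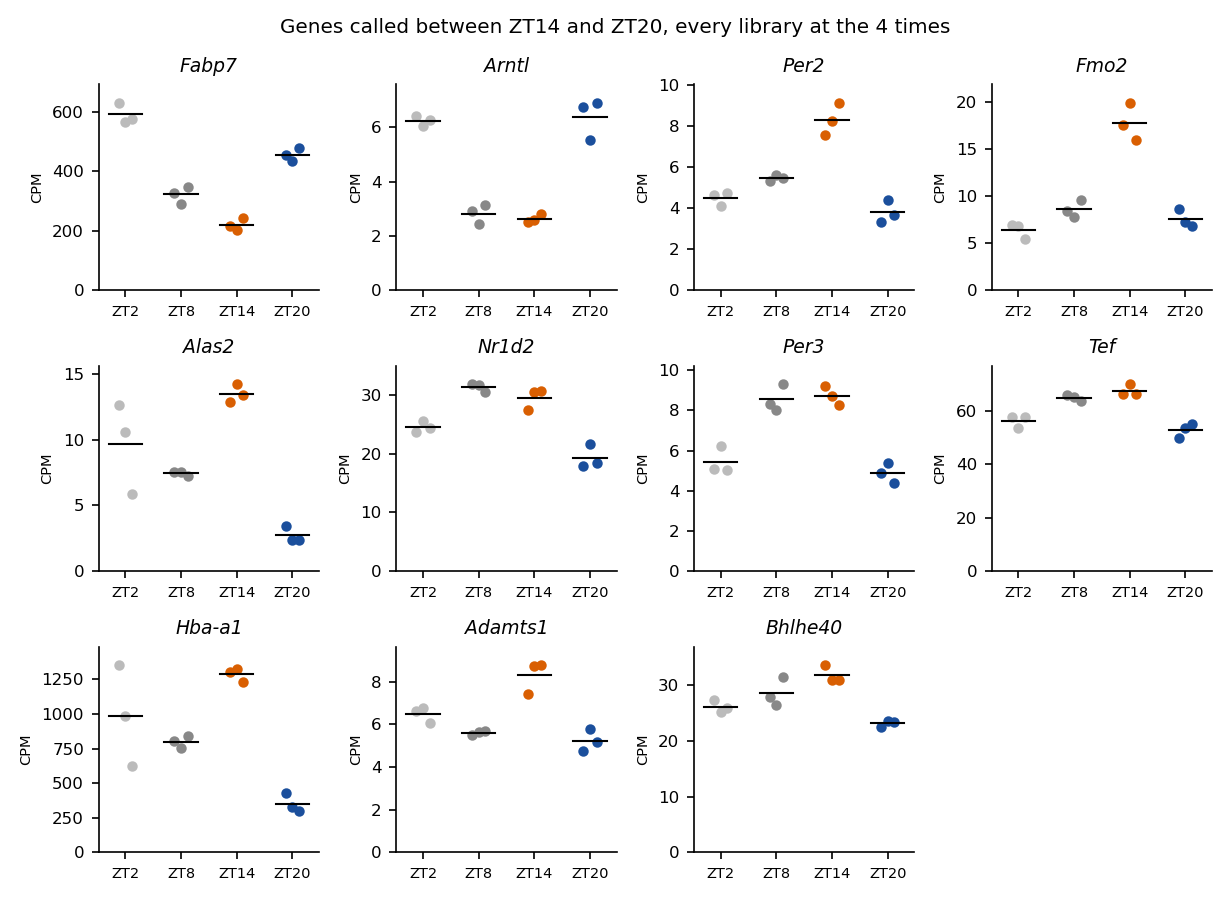
Level of the 11 called genes in every library (CPM, axis from 0; points, 3 libraries a time; bar, their mean) at ZT2, ZT8, ZT14 and ZT20. Of the 9 genes that were lower at ZT20, 8 had their highest mean of the 4 times at ZT14 and 8 their lowest at ZT20.

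Sequences upstream of the clock and called genes were searched for elements through which this loop is known to act. The windows are the 250 bases before RefSeq start sites in GRCm38.p6, searched on both strands for the E-box CACGTG, the D-box TTATGTAA, read as TTACATAA from the opposite strand, and the ROR element TAGGTCA, read from the opposite strand as TGACCTA. None of the 3 motifs overlaps another in the sequences below. Over all 32851 such windows, 6.02% hold this E-box, 0.82% this D-box and 2.23% this ROR element. These shares count windows for 1 motif each. Some genes have several windows, so counts of genes with any match are not directly comparable with them. Of the 11 called genes 9 were in the table (Per2 and Bhlhe40 were not), and 3 of these 9 had a match: Per3, Tef and Fabp7. By motif, 1 of the 9 had an E-box, 1 a D-box and 1 a ROR element. Arntl, Fmo2, Alas2, Nr1d2, Hba-a1 and Adamts1 had no match. Of the 20 genes of the clock lists 17 were in the table and 7 had a match; besides Per3 and Tef these were Ciart, Per1, Bhlhe41, Cry1 and Nfil3. Shown are the 3 called genes and Ciart, the window with the most E-boxes among them, each written from 5′ to 3′ on the gene's strand, without bases that GENCODE puts in an exon of the gene, and with the motif in capitals. Per3 (chr4:151044666-151044915, minus strand) has 2 D-boxes, 205 and 158 bases before its start. Tef (chr15:81811164-81811413, plus strand, the window of its second start site) has an E-box 138 bases before it. Ciart (chr3:95882252-95882478, minus strand) has 3 E-boxes, at 116, 58 and 44 bases. Fabp7 (chr10:57784673-57784880, plus strand) has a ROR element 171 bases before its start. A match is a run of letters and not a measured binding site.
Per3: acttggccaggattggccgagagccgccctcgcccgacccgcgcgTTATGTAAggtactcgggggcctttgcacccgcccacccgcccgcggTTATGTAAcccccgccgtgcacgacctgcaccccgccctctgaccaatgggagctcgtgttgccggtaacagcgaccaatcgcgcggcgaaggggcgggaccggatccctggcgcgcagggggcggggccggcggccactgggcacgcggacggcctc
Tef: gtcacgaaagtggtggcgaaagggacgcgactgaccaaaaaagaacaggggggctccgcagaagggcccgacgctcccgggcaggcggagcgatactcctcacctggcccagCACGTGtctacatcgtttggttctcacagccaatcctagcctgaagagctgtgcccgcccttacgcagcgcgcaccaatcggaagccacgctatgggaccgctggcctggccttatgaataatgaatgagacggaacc
Ciart: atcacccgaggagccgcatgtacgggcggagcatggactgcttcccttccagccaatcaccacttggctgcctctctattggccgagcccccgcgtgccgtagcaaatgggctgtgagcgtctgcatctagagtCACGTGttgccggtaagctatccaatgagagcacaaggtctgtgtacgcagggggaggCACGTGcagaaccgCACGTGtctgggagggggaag
Fabp7: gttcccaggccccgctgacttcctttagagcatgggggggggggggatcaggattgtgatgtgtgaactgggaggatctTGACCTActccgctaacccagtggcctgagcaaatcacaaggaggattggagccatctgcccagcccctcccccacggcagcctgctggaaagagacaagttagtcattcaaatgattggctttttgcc

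Fabp7 had the lowest p of all genes in this comparison. It encodes a fatty acid-binding protein used as a marker of satellite glia, and lies on chromosome 10 at 57784881 to 57788450 (GRCm38, GENCODE). The ZT14 libraries held 217.1, 203.2 and 241.7 CPM and the ZT20 libraries 453.0, 435.8 and 476.6 CPM, so that the lowest ZT20 value was far above the highest ZT14 value. It was 2.06 times as high at ZT20 (log2 fold change 1.04 ± 0.08 SE, edgeR adjusted p = 0.000723). Fabp7 lost this call without the 4 muscle-richest libraries and in the 6 libraries alone with replicate number as a block. No other satellite glia gene passed. Over all tested genes 0.00775% were called higher, and 3.14% were higher and 3.14% lower at an unadjusted p under 0.05. Of the 16 on the list 1 rose, namely Fabp7, and 0 fell in edgeR (unadjusted p under 0.05: 2 higher, 1 lower; 1 higher and 3 lower without ZT14 replicate 2, 1 higher and 1 lower without ZT20 replicate 1, 3 higher and 2 lower without ZT20 replicate 2), limma-trend and DESeq2 gave the same 1 call, and the median log2 fold change was -0.04. Gja1, a gap junction gene, was at 16.5, 15.7 and 16.9 CPM and then at 20.0, 18.0 and 17.1 CPM, and Glul, the glutamine synthetase gene, was at 402.1, 377.6 and 385.2 CPM and then at 369.4, 348.9 and 358.2 CPM. Both sets stood apart by narrow margins, and neither passed (edgeR adjusted p = 0.755 and 0.704). Among 14 lipid-binding proteins Fabp7 was also the 1 call in edgeR and limma-trend, and DESeq2 named 2, the other being Dbi. Dbi, which carries acyl-CoA, came next, with 527.5, 471.9 and 500.4 CPM against 562.7, 579.2 and 562.1 CPM (log2 difference 0.18 ± 0.05 SE, edgeR adjusted p = 0.459, DESeq2 adjusted p = 0.023). The list's median log2 fold change was -0.01.

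Fmo2, a flavin-containing monooxygenase that oxidizes foreign compounds, was lower at ZT20. Its libraries read 17.6, 19.9 and 16.0 CPM at ZT14 and 8.71, 7.29 and 6.87 CPM at ZT20, with a wide gap. It fell to 0.427 of the ZT14 level (log2 fold change -1.23 ± 0.12 SE, edgeR adjusted p = 0.00470). Fmo2 lost this call without the 4 muscle-richest libraries and in the 6 libraries alone with replicate number as a block. Of the 4 measured genes of its family it was the only call. Fmo1 stood apart as well, at 59.1, 57.7 and 53.8 CPM against 51.5, 42.3 and 46.3 CPM, without passing (edgeR adjusted p = 0.668), and Fmo4 and Fmo5 had log2 values of 0.24 and 0.01. Adamts1, a secreted protease that cleaves matrix proteoglycans, was at 7.41, 8.76 and 8.77 CPM and then at 4.73, 5.77 and 5.18 CPM. These did not overlap, and it fell by 0.67 ± 0.09 on the log2 scale (SE, edgeR adjusted p = 0.0354), a call kept in 3 of the 12 fits without 1 library, those without ZT2 replicate 3, ZT14 replicate 1 or ZT20 replicate 2. Of 23 collagen and matrix genes Adamts1 alone passed, and the median log2 fold change was -0.09. Over all tested genes 0.0349% were called lower, and 3.14% were lower and 3.14% higher at an unadjusted p under 0.05. Of the 23 genes 1 was higher and 2 lower at such a p. The 2 lower became 7 without ZT20 replicate 1 and 4 without ZT8 replicate 2 or 3 or ZT14 replicate 1, and the 1 higher became 0 without ZT14 replicate 1 or ZT20 replicate 1. Its relative Adamts5 had a log2 difference of 0.19 and the fibril-associated collagen gene Col12a1 one of -0.73, neither past the threshold (edgeR adjusted p = 0.760 and 0.648).

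Among genes of red blood cells Alas2 and Hba-a1 fell. Alas2, which encodes the first enzyme of the haem pathway in erythroid precursors, was at 12.9, 14.2 and 13.4 CPM in the ZT14 libraries and at 3.48, 2.41 and 2.40 CPM in those of ZT20. It had the largest fold change of the called genes, to 0.205 of the ZT14 level (log2 fold change -2.29 ± 0.24 SE, edgeR adjusted p = 0.00470), and missed the threshold without ZT20 replicate 3. Hba-a1, an alpha globin gene, was at 1300, 1324 and 1233 CPM and then at 432.3, 328.6 and 296.9 CPM, and fell by 1.87 ± 0.24 on the log2 scale (SE, edgeR adjusted p = 0.0354). It passed in 2 of the 12 fits without 1 library, those without ZT2 replicate 1 or 3. Its near-identical copy Hba-a2 and the beta globin genes Hbb-bs and Hbb-bt, whose reads may likewise be divided between copies, had log2 values of -1.89, -2.14 and -2.17 with edgeR adjusted p-values of 0.131, 0.0673 and 0.0639. These 3 also had every ZT20 library below every ZT14 library. The alpha genes together stood at 2185, 2172 and 2058 CPM at ZT14 and at 713.6, 537.0 and 498.2 CPM at ZT20, and the beta genes at 1634, 1851 and 1618 CPM and at 513.6, 362.1 and 279.5 CPM. Both pairs were thus low in the same libraries, and the alpha to beta ratio, whose size depends on transcript length and is read only between libraries, ranged from 1.17 to 1.34 at ZT14 and from 1.39 to 1.78 at ZT20.

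The whole list of 20 measured red cell markers had 2 called lower and 0 higher in edgeR, and 9 lower and 0 higher at an unadjusted p under 0.05. It had 11 without overlap (all lower) and a median log2 fold change of -0.55. The shares over all tested genes were 0.0349% called lower, 3.14% lower at such an unadjusted p and 5.58% lower without overlap. DESeq2 named 7 of the 20 as lower, and edgeR named 5 without ZT2 replicate 1 or 3 and 0 without ZT20 replicate 3. Slc4a1, the anion exchanger gene of the red cell membrane, was at 1.29, 1.95 and 1.14 CPM and then at 0.632, 0.417 and 0.683 CPM, without overlap, and did not pass (edgeR adjusted p = 0.494). Of the further members, 4 that overlapped between the times are given here. Car2 and Car1, carbonic anhydrases, had log2 differences of -0.08 and -0.16, Tfrc, the transferrin receptor, one of -0.23, and Epb42, a protein of the red cell membrane skeleton, one of -0.28. The erythroid regulators Klf1 and Gata1 and the receptor gene Epor reached at most 0.635 CPM in the 6 libraries (Epor, ZT20 replicate 3), with overlapping values. Summed over the list, levels were 3961 to 4311 CPM at ZT14 and 1018 to 1463 CPM at ZT20; at ZT8 they were 2463 to 2650 CPM, and at ZT2 they ranged from 1892 to 4256 CPM between libraries of that 1 time. The ZT2 libraries alone spanned much of the distance between ZT14 and ZT20. The amount of blood left in the dissected ganglia was not measured, and its part in these differences was not tested.

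Neutrophil and bone marrow genes had lower values in the ZT20 libraries as well, without passing the threshold. In edgeR 0 of 15 passed, 14 had an unadjusted p under 0.05 (all lower), and 14 had no overlap (all lower). By the same 2 measures 3.14% and 5.58% of all tested genes were lower. Limma-trend named 0 of them and DESeq2 named 8 as lower. All 15 lay below 0, with a median log2 fold change of -1.30. S100a8, which encodes an abundant calcium-binding protein of neutrophils, was at 13.1, 20.9 and 21.2 CPM at ZT14 and at 8.49, 5.87 and 6.81 CPM at ZT20 (log2 difference -1.38 ± 0.28 SE, edgeR adjusted p = 0.244). Ltf, lactoferrin of the secondary granules, was at 2.85, 6.02 and 4.53 CPM and then at 1.67, 0.770 and 1.36 CPM (edgeR adjusted p = 0.213). Mmp8, neutrophil collagenase, was at 0.967, 1.78 and 1.57 CPM and then at 0.479, 0.236 and 0.281 CPM (edgeR adjusted p = 0.140). In all 3 genes replicate 1 was the lowest library of ZT14 and the highest of ZT20. The exception in the list was Prtn3, named here after its values were seen, with 1.17 to 2.15 CPM against 1.01 to 1.44 CPM. Summed over the list, levels were 89.9 to 130.8 CPM at ZT14 and 33.8 to 54.1 CPM at ZT20, with 73.9 to 170.7 CPM at ZT2 and 82.7 to 116.8 CPM at ZT8. Without the muscle-richest library of both times, 14 of the 15 still had an unadjusted p under 0.05 and the median was -1.48. The part that blood or marrow carried over at dissection has in these values was not tested.

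**Figure D3:**
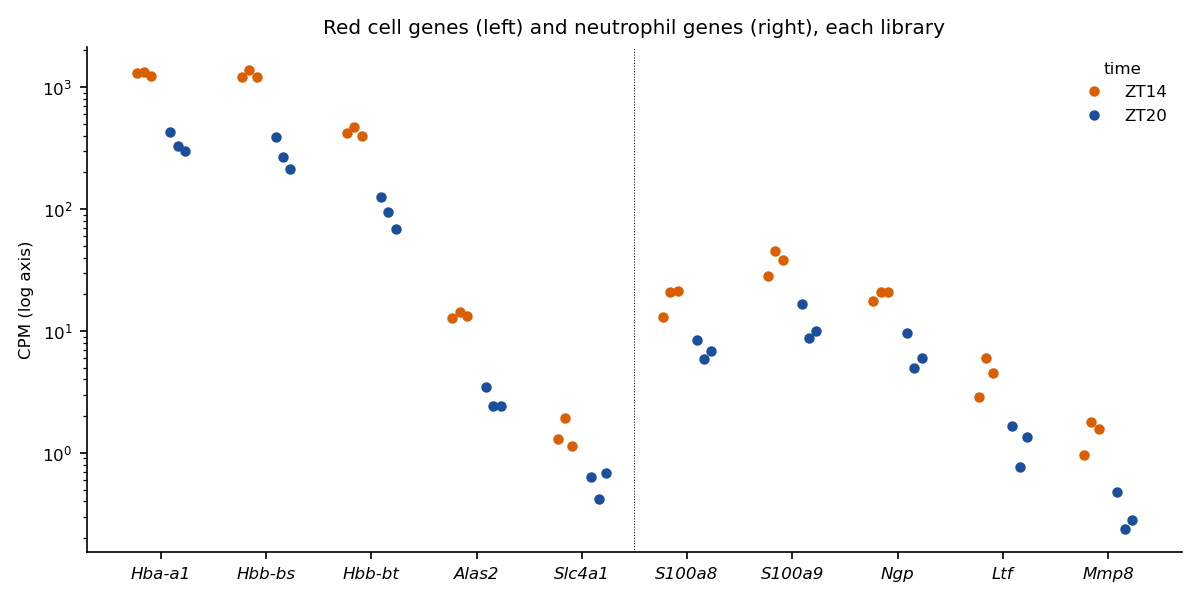
Level of 5 red cell genes and 5 neutrophil genes in each of the 3 libraries of ZT14 (orange) and of ZT20 (blue), in CPM on a log axis; S100a9 and Ngp were added after their values were seen. For these 10 genes, picked from their lists, the 3 ZT20 libraries lie below the 3 ZT14 libraries. The same holds for 11 of all 20 measured red cell genes and 14 of all 15 neutrophil genes. Over all tested genes it holds for 5.58%.

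In the other immune lists edgeR, limma-trend and DESeq2 each called 0 genes. Of 14 macrophage genes 1, the scavenger receptor gene Cd163, had an unadjusted p under 0.05 in edgeR, at 2.71 ± 0.49 CPM against 1.72 ± 0.19 CPM (SD, n = 3 each). Without ZT20 replicate 2 there were 2 such genes, both lower. Without ZT2 replicate 2 or 3 or ZT8 replicate 1 or 3 there was 1 lower and 1 higher. The microglia and macrophage gene Aif1 had a log2 difference of 0.48 and the vessel-associated macrophage gene Lyve1 one of -0.29, so the 3 macrophage genes of lowest p did not share a direction. None of the 13 T and B cell genes had an unadjusted p under 0.05 in edgeR, and 1 had one without ZT8 replicate 3 or without ZT14 replicate 3. Over all tested genes 3.14% were lower and 3.14% higher at such a p.

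Immediate early genes, which are switched on within minutes by activity, growth factors or stress, leaned lower at ZT20. Of 21 measured, 0 passed in edgeR, and 7 were lower and 0 higher at an unadjusted p under 0.05. There were 9 lower without overlap, and 20 had a log2 fold change below 0 (median -0.28). For all tested genes the shares were 3.14% lower at such a p and 5.58% lower without overlap. DESeq2 named 2 as lower and limma-trend 0. Dusp1, a phosphatase that switches off MAP kinases, was closest to the threshold, with 37.6, 40.6 and 36.1 CPM against 29.3, 27.4 and 25.7 CPM (log2 difference -0.47 ± 0.08 SE, edgeR adjusted p = 0.0910). Junb, a component of the AP-1 factor, was at 42.8, 41.4 and 38.6 CPM and then at 28.8, 33.2 and 29.4 CPM. Fos, its partner and a common sign of recent neuronal activity, was at 7.55, 9.73 and 5.84 CPM and then at 5.28, 4.61 and 4.59 CPM. Both were separated between the times, and neither passed (edgeR adjusted p = 0.283 for Junb and 0.487 for Fos).

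Glucocorticoid-responsive genes, targets of the adrenal hormone that in mice rises towards the dark phase, leaned the same way. Of 17 genes 0 passed in edgeR, and 9 were lower and 0 higher at an unadjusted p under 0.05 (all tested genes: 3.14% lower). A log2 fold change below 0 was seen in 15 (median -0.20). DESeq2 named 2 of them and limma-trend 0, and the 9 became 3 without ZT14 replicate 3 or without ZT20 replicate 1. Fam107a, an actin-associated gene induced by stress hormones, was at 24.9, 26.5 and 30.5 CPM and then at 14.8, 19.8 and 17.4 CPM (log2 difference -0.65 ± 0.12 SE, edgeR adjusted p = 0.154). Fkbp5, a chaperone of the hormone's receptor and a standard readout of it, was at 33.9, 36.6 and 39.7 CPM and then at 30.7, 32.3 and 33.0 CPM (edgeR adjusted p = 0.755). Dusp1 and Per1 belong to this list as well as to those above. Transcripts tied to body temperature had small differences: of the 3 cold-inducible RNA-binding protein genes, Srsf5 and Cirbp had log2 differences of 0.22 and 0.29 and Rbm3 one of 0.14, while of 13 heat shock genes 3 were lower and 0 higher at an unadjusted p under 0.05, Hspa1a with -0.26 at the head. The 3 became 0 without ZT14 replicate 3 or without ZT20 replicate 1. In edgeR and limma-trend 0 genes of either list passed, and DESeq2 named 1, Srsf5.

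**Figure D4:**
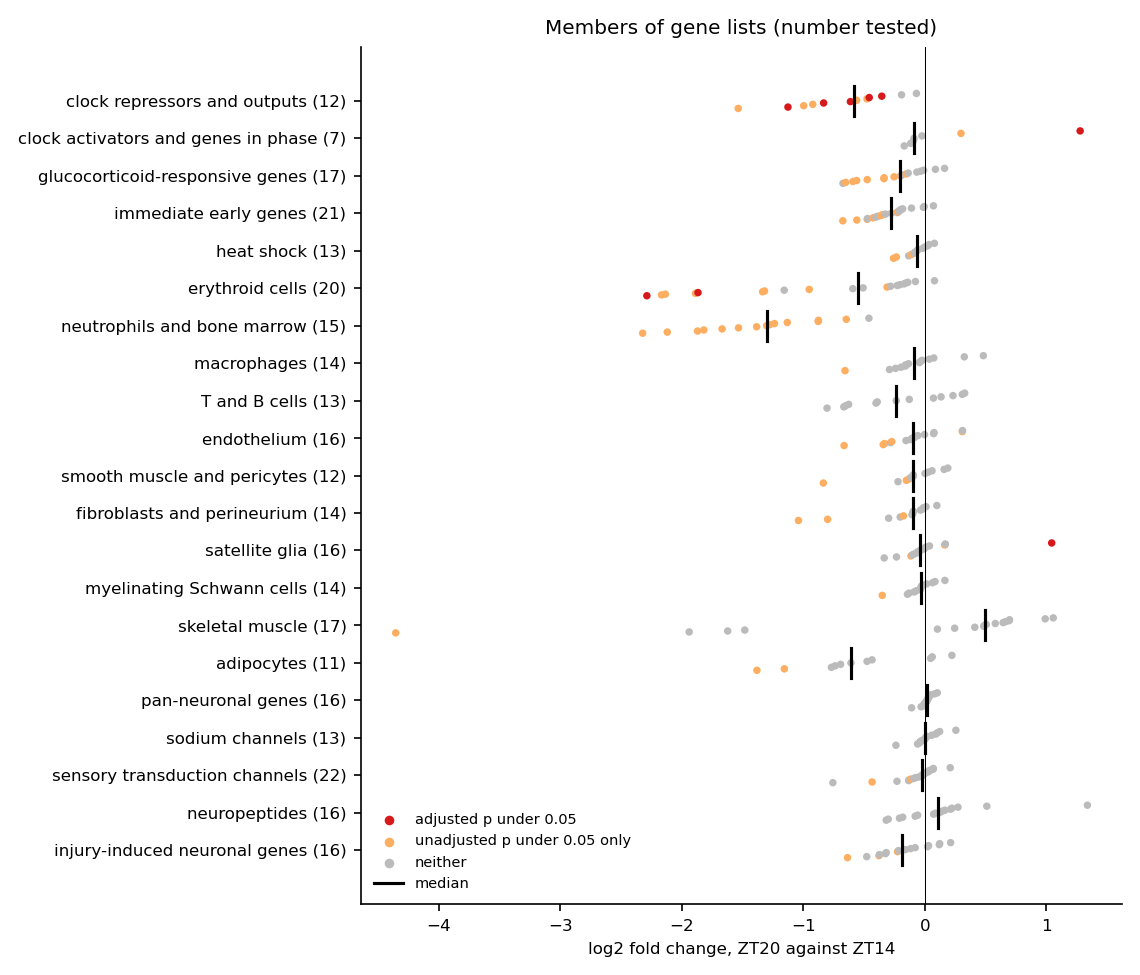
Log2 fold change of ZT20 against ZT14 for each measured member (point) of 21 gene lists, with the list's median as a black bar; red points passed an adjusted p of 0.05 and orange points an unadjusted p of 0.05 only. The clock repressor, adipocyte, red cell and neutrophil lists have medians of -0.59, -0.61, -0.55 and -1.30. Of the 5 neuronal lists at the foot, 4 have medians between -0.02 and 0.11 and the injury-induced list has one of -0.19.

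Of the 12 protein-coding genes nearest to the threshold without passing, 6 lie outside these lists. Spg21, a gene mutated in a form of spastic paraplegia, was at 14.7 ± 0.53 CPM at ZT14 (SD, n = 3) and at 21.4, 19.3 and 18.5 CPM in the ZT20 libraries. Sat1, which acetylates polyamines for breakdown or export, was at 74.6, 83.0 and 88.7 CPM and then at 105.2, 109.2 and 102.7 CPM. Neither pair of groups overlapped, and their log2 differences of 0.43 and 0.36 had edgeR adjusted p-values of 0.0528 and 0.0538. Igfbp5, a secreted protein that binds insulin-like growth factors, was at 58.6, 63.6 and 58.9 CPM against 36.4, 41.3 and 31.1 CPM (edgeR adjusted p = 0.0915), and Id1, an inhibitor of bHLH factors, at 27.5, 25.8 and 25.4 CPM against 17.6, 15.9 and 16.6 CPM (edgeR adjusted p = 0.0975). Car13, a carbonic anhydrase, and Swsap1, a DNA repair factor, had log2 differences of -0.36 and 0.25, both with an edgeR adjusted p of 0.0970.

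Vessel and connective tissue lists had 0 calls in edgeR apart from Adamts1. Of 16 endothelial genes 0 passed, with 4 lower and 1 higher at an unadjusted p under 0.05 and 7 lower without overlap. Over all tested genes, 3.14% were lower at such a p and 5.58% were lower without overlap. The 4 ranged from 3 to 6 when 1 library was left out. DESeq2 named 1 as lower and limma-trend 0. Slco1a4, which moves organic anions across barrier endothelium, was at 15.2, 15.5 and 15.6 CPM and then at 12.7, 13.2 and 12.3 CPM (edgeR adjusted p = 0.205). Cldn5, the tight junction gene of the same cells, leaned the other way, at 29.4, 24.7 and 24.5 CPM against 35.0, 29.1 and 33.3 CPM (edgeR adjusted p = 0.642, overlapping). Vwf, the clotting factor gene of larger vessels, was at 6.28 to 8.67 CPM against 3.80 to 6.18 CPM. Pi16, a marker of fibroblasts around vessels, was at 4.73, 5.01 and 4.05 CPM and then at 3.30, 1.61 and 1.80 CPM (log2 difference -1.04 ± 0.25 SE, edgeR adjusted p = 0.388). Of 11 fat cell genes 0 passed in edgeR, and 8 had a log2 fold change below 0 (median -0.61). At an unadjusted p under 0.05, 2 were lower and 0 higher. Their median ran from -1.125 to 0.066 when 1 library was left out. DESeq2 named 1 as lower and limma-trend 0. That gene was Plin4, a lipid droplet gene, at 0.916, 0.841 and 1.15 CPM and then at 0.500, 0.435 and 0.370 CPM. It did not overlap (edgeR adjusted p = 0.348, DESeq2 adjusted p = 0.0396). The muscle list had a median of 0.49, which turned to -1.06 without the muscle-richest library of each time, and 1 of its 17 genes, Myh7, had an unadjusted p under 0.05. Without ZT20 replicate 1 alone the median was -1.72, and without ZT14 replicate 2 it was 0.23 and 0 genes had such a p.

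No neuronal or pain-related gene passed. Over the 12 lists, which hold 193 tested genes, edgeR and limma-trend called 0 and DESeq2 called 2. In edgeR 11 had an unadjusted p under 0.05 (5.70%, against 6.28% of all tested genes), and the median log2 fold change was -0.02. By direction the 11 were uneven, with 10 lower and 1 higher, where 3.14% of all tested genes were lower and 3.14% higher. Without overlap 15 of the 193 were lower and 7 higher (all tested genes: 5.58% and 5.78%). The list of injury-induced neuronal genes, which sensory neurons switch on after nerve damage, lay lowest of the 12, with a median of -0.19, 11 of 16 genes below 0, and 3 lower and 0 higher at an unadjusted p under 0.05. These were Anxa1, an annexin gene (log2 difference -0.64), Sox11, a transcription factor of regrowing neurons (-0.38), and Jun of the AP-1 factor (-0.22), with edgeR adjusted p-values of 0.537, 0.749 and 0.641. The median was 0.0058 without ZT20 replicate 1, -0.09 without ZT14 replicate 2, -0.30 without ZT14 replicate 1 and -0.29 without ZT20 replicate 2, where 5 were lower. Scn9a, Scn10a and Scn11a, the sodium channel genes through which nociceptors fire, had log2 values of -0.02, -0.06 and -0.04, and the channel genes Trpv1 (heat), Trpa1 (irritants) and P2rx3 (ATP) of 0.04, -0.08 and -0.02. For the peptide genes Calca and Tac1 they were -0.06 and 0.09. The 95% intervals of these 8 genes together reach from -0.34 to 0.26 on the log2 scale. Oprm1, the opioid receptor gene, was at 1.58, 3.09 and 1.70 CPM against 1.53, 1.99 and 2.37 CPM, and its interval from -0.70 to 0.48 leaves a wider range. Piezo2, the channel of touch and proprioception, was the neuronal gene of lowest p apart from Mrgprx1. It was at 120.5, 99.3 and 106.3 CPM at ZT14 and at 74.5, 85.0 and 82.0 CPM at ZT20, without overlap (log2 difference -0.43 ± 0.11 SE, edgeR adjusted p = 0.488). Mrgprx1, an itch receptor gene of small neurons, was at 31.9, 35.8 and 33.6 CPM and then at 26.5, 23.9 and 27.2 CPM, also without overlap (log2 difference -0.38 ± 0.09 SE, edgeR adjusted p = 0.348). Those 2 were the genes that DESeq2 named (adjusted p = 0.0366 for Piezo2 and 0.0190 for Mrgprx1).

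Whether the 6 h from ZT14 to ZT20 brought other changes than the 6 h from ZT2 to ZT8 was tested as the difference of both changes, from separate libraries. The edgeR test of this difference called 13 of the 25809 genes (0.0504%), and clock genes made up 8 of them. Fabp7 and Arntl had opposite signs in the 2 steps: Fabp7 had a log2 fold change of 1.04 from ZT14 to ZT20 and of -0.87 from ZT2 to ZT8, and Arntl of 1.28 and -1.14. Fabp7 was at 628.1, 566.4 and 576.6 CPM in the ZT2 libraries and at 328.3, 290.8 and 347.2 CPM in those of ZT8. ZT2 and ZT20 thus stood high and ZT8 and ZT14 low, with no overlap. Per2, Per3, Nr1d2 and Fmo2 ran the other way, with values from ZT2 to ZT8 of 0.28, 0.65, 0.35 and 0.42. For the 2 called red cell genes the estimates were negative in both steps, but from ZT2 to ZT8 they were imprecise. Alas2 had a log2 value of -0.38 ± 0.22 (SE) from ZT2 to ZT8 and Hba-a1 one of -0.30 ± 0.23 (SE), so their sign is uncertain. The differences between the steps were -1.91 for Alas2 and -1.56 for Hba-a1. Those of Per2 and Per3, which passed, were smaller in size, at -1.41 and -1.48. For Alas2 and Hba-a1 the difference did not pass (edgeR adjusted p = 0.127 for Alas2 and 0.368 for Hba-a1). Adamts1 and Bhlhe40 did not pass either (edgeR adjusted p = 0.729 and 0.0823).

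**Figure D5:**
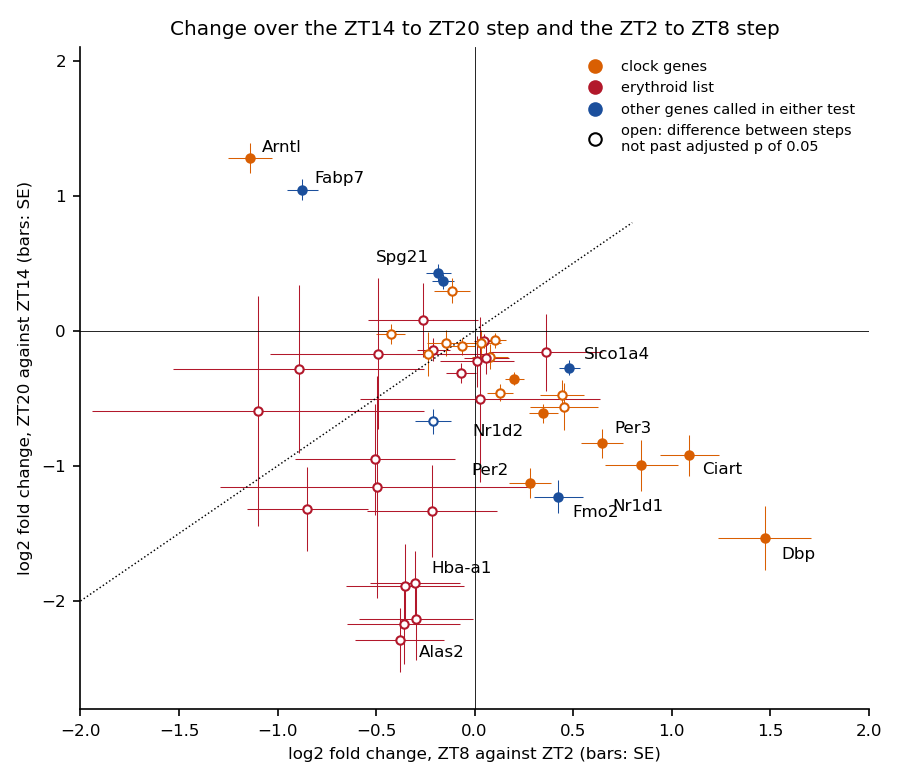
Log2 fold change from ZT2 to ZT8 (x axis) against that from ZT14 to ZT20 (y axis), with bars of 1 SE, for the clock (orange) and red cell (red) lists and the other called genes (blue); the dotted line marks equal change, and filled points passed the test of the difference. Clock genes with filled points lie in the quadrants of opposite sign. Alas2 and Hba-a1 are negative on both axes, with SEs of 0.22 and 0.23 on the x axis.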

How the data were processed

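Estimated counts per gene, as deposited for 12 libraries of mouse DRG, are not whole numbers and lie on a length-dependent, coverage-like scale, so levels are compared between libraries and not between genes. HISAT2 2.2.1, StringTie 2.1.5 and build GRCm38.p6 are named per the submitters' processing notes; roles, annotation and strand handling are not stated there. Of 38942 entries, 348 assembled loci were left out (0.203% to 0.231% of a library), and 38462 of 38594 Ensembl IDs matched GENCODE M21. Counts were rounded and fitted with edgeR 4.0.16 in R 4.3.3 (filterByExpr, TMM, robust quasi-likelihood F test, 1 model of the 4 times over all 12 libraries, Benjamini-Hochberg over 25809 genes, threshold 0.05; 12785 genes fell below the filter), checked on simulated data. Limma 3.58.1 and DESeq2 1.42.0 were alternatives, as were other scalings, filters, left-out libraries, a muscle score and an approximate conversion to reads. CPM use TMM library sizes. Intervals are 95%. Gene lists are described by counts and medians, with no list test. The comparison and lists were chosen with earlier results of these data known. Named are all called genes, the 12 protein-coding genes next by p, members of the clock and erythroid lists (some are not reported here), the 3 members of lowest p in other lists, 10 nociceptor genes and all genes of the step test.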

Additional observations from a re-analysis of the deposited data

Results flagged for a closer look

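For 13 genes the change from ZT14 to ZT20 differed from the change from ZT2 to ZT8, by the edgeR test of the difference itself over all genes. The differences below are log2 fold change of the first step minus that of the second. The largest were those of Dbp (-3.01), Arntl (2.42), Ciart (-2.01), Fabp7 (1.92), Nr1d1 (-1.84) and Fmo2 (-1.65), followed by Per3 (-1.48), Per2 (-1.41), Nr1d2 (-0.96), Slco1a4 (-0.75), Spg21 (0.61), Tef (-0.56) and Sat1 (0.52). By edgeR the adjusted p was 4.28e-05 for Fabp7 and at most 0.0461, for Spg21, Sat1 and Nr1d1. In the 12 fits without 1 library, 8 of the 13 passed each time; Dbp did not pass without ZT20 replicate 1, Tef missed in 5, Nr1d1 in 9 and Spg21 and Sat1 in 10 each. Nr1d1, Dbp, Ciart, Slco1a4, Spg21 and Sat1 did not pass between ZT14 and ZT20 alone.

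The 348 assembled loci without an Ensembl gene, which the comparisons leave out, held at most 0.231% of a library's counts, in ZT2 replicate 3; no sample of the series lacks them.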

How the results depend on the processing

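The count of 11 genes between ZT14 and ZT20 was 12 with DESeq2-type size factors, 10 with no filter, 13 with a mean of at least 1 CPM, 12 on approximate reads (4 higher, 8 lower), 9 without globin and mitochondrial genes and 9 in the 6 libraries alone (4 higher, 5 lower). It moved to 25 with the muscle score as a covariate (10 higher, 15 lower), 0 without the 4 muscle-richest libraries (2411 genes at an unadjusted p under 0.05), 7 without those of ZT14 and ZT20 only (chosen after seeing the data; 3 higher, 4 lower), 18 in limma-trend and 115 in DESeq2 (38 higher, 77 lower), both of which named all 11. Leaving out 1 library gave 4 to 17. The cause was not tested. Whether replicate numbers pair the samples is not known. Same-numbered libraries of ZT14 and ZT20 had correlations of 0.0777, 0.0277 and 0.0230 between deviations from their group means. Differently numbered ones ran from -0.0496 to 0.0267. Deviations from means of 3 libraries cannot settle whether samples were paired. A replicate block gave 9 genes, 7 of them among the 11, and 0 in the 6 libraries alone (1857 at an unadjusted p under 0.05). The 13 genes of the step test became 8 with the replicate block, 5 without the 4 muscle-richest libraries, 81 in DESeq2, 12 in limma-trend and 9 to 16 without 1 library. No named value with a call changed sign in any setting. Log2 fold changes of Fabp7 ranged from 0.99 to 1.11 and of Alas2 from -2.52 to -2.20 over the 25 settings. Exact read depth is unknown, so counting error is approximate, and genes near 1 CPM carry the least precise values.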
